A study of Mus musculus with 4 samples.

Results

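The genes described here are 10 that encode brakes on mitogen-activated protein kinase (MAPK) signaling: *Dusp1*, *Dusp2*, *Dusp4*, *Dusp5*, *Dusp6*, *Dusp10*, *Spry1*, *Spry2*, *Spred1*, and *Spred2*. They were taken by gene symbol, with earlier results of these data known, and each matched 1 of the 27179 rows of the count table. MAPKs such as ERK, JNK, and p38 are switched on by phosphorylation downstream of cytokine and growth factor receptors, and dual-specificity phosphatases (DUSPs) remove those phosphates. Sprouty and Spred proteins act earlier, between the receptor and Raf. Many of these genes are transcribed in answer to the kinases they restrain, so that their RNA levels change with pathway activity, and the cytokines that drive group 2 innate lymphoid cells (ILC2s) signal in part through MAPKs.

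ILC2s, lymphocytes without antigen receptors, were sorted as CD45.2+Lin-CD127+KLRG1+ cells from the large intestine of WT C57BL/6 mice and cultured for 5 days with the growth cytokines IL-2 and IL-7 plus the alarmins IL-25 and IL-33, at 10 ng/mL each. The bile acid deoxycholic acid (DCA, 100 μM) or vehicle was then added, for 16 hours by the design text of the series and 24 hours by the methods of the study. There were 2 vehicle and 2 DCA libraries, with no statement of whether the 2 libraries of a treatment came from separate mice or cultures, so p-values measure only the spread between these libraries. All 4 libraries carried the cytokines, so the levels are those of stimulated cells and not of resting ones. Total counts were 26564059 to 35838342 in vehicle and DCA replicate 1 libraries, and 244165712 in DCA replicate 2. Levels are given as CPM, counts scaled to the size of the library. Where no read was counted, counting error alone leaves room for 3 counts, or 0.0125 CPM in DCA replicate 2 and 0.0821 to 0.115 CPM in the other libraries. The 10 ILC2 markers checked, among them *Gata3* and *Il1rl1*, were detected in every library and summed to 11603 to 15710 CPM, mostly *Il5*. Of these, 4 were higher and 6 lower under DCA. At an unadjusted edgeR p under 0.05, 2 were lower and 0 higher, beside 1.73% and 2.54% of all genes tested. *Il7r*, the gene of the sort marker CD127, was at 374 and 351 CPM under vehicle against 583 and 461 CPM under DCA. *Il5* was at 8868 and 7727 against 9963 and 12334 CPM. Both DCA values lay above the vehicle values for these 2 markers, an order seen in 18.6% of all genes tested. They lay below the vehicle values for 3 markers, *Areg*, *Klrg1*, and *Il1rl1*, an order seen in 14.7% of all genes tested. *Areg* was at 532 and 512 CPM under vehicle against 434 and 254 CPM under DCA. *Klrg1*, a marker of the sort, went from 683 ± 6.98 CPM under vehicle to 410 ± 75.6 CPM under DCA, and *Il1rl1*, the IL-33 receptor gene, from 855 ± 31.4 to 566 ± 46.2 CPM (SD, n = 2 each), and their part in the values below was not tested. Markers of other cell types summed to 11.2 to 26.6 CPM for T cells (mostly *Cd3g*, with *Cd4* and *Cd8a* at 0), 37.8 to 55.2 CPM for B cells (mostly *Cd79b*), 159 to 363 CPM for mast cells and basophils (mostly *Kit*), 4.49 to 8.07 CPM for epithelial cells, 0 to 1.49 CPM for ILC3s, and 0 to 0.383 CPM for macrophages and monocytes. Mitochondrially encoded genes took 2.12% ± 0.420 of counts under vehicle and 1.37% ± 0.189 under DCA (SD, n = 2 each), with no overlap, and whether this bears on the values below was not tested.

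The effect of DCA was tested with the quasi-likelihood method of edgeR, with p adjusted over the 11184 genes that averaged 1 CPM or more. Of the 10 feedback genes, 9 reached that level and *Spry2* did not. No gene of the 9 reached an adjusted p under 0.05, as was the case for 0% of all genes tested, and 0 had an unadjusted p under 0.05, against 4.27% of all genes tested (2.54% higher and 1.73% lower under DCA). DESeq2 called 0 of the 9 at an adjusted p under 0.05, against 2.26% of all genes, and gave 1 of them, *Spred1*, an unadjusted p under 0.05, as it did for 9.57% of all genes. An exact permutation test (two-sided) of 2 against 2 libraries cannot give a p below 0.333. Both DCA values of *Spred1* and of *Spry1* lay below the vehicle values, an order seen in 14.7% of all genes tested. Those of *Dusp5* lay above them, as did those of 18.6% of all genes. Those of *Spred2* also lay above them, but it averaged 1 CPM or more only through its DCA libraries. Its order is therefore not read against that share. The 6 other feedback genes overlapped between treatments. The median log2 fold change over the 9 genes, *Spred2* among them, was -0.43, beside 0.0080 over all genes tested. Without vehicle replicate 1 the median of the 9 was 0.50.

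**Figure D1:**
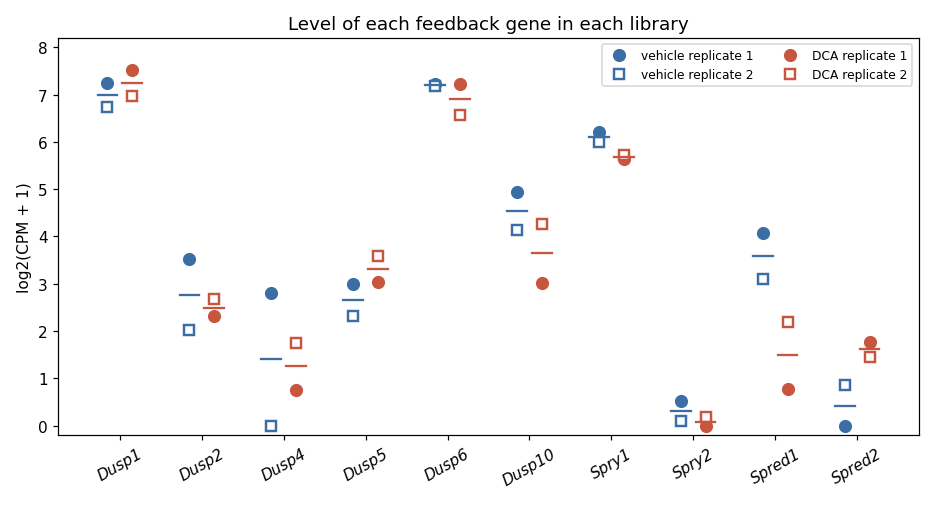
Level of each of the 10 feedback genes in each library, as log2(CPM + 1). Circles are replicate 1 and squares replicate 2, blue is vehicle and red is DCA, and short lines are the means of the log2 values. *Dusp1*, *Dusp6*, and *Spry1* lie at the top in every library, and the *Spred1* points of DCA lie below those of vehicle.

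*Dusp1*, *Dusp6*, and *Spry1* made up 84.2% and 90.8% of the summed CPM of the 10 genes in vehicle replicates 1 and 2, and 94.5% and 86.5% in DCA replicates 1 and 2. The 10 genes together held 441 and 347 CPM under vehicle against 403 and 314 CPM under DCA, so the ranges of the treatments overlapped. Divided by the length of the longest RefSeq transcript, levels ran from *Dusp1*, at 64.5 ± 15.7 CPM per kilobase under vehicle (SD, n = 2) and 77.1 ± 20.2 under DCA (SD, n = 2), down to *Spry2*, at 0.123 ± 0.122 and 0.0309 ± 0.0437. *Dusp6* came second, at 52.4 ± 0.658 CPM per kilobase under vehicle and 43.6 ± 13.9 under DCA. *Dusp1* was above *Dusp6* in 4 of 4 libraries, although their ranges overlapped slightly, at 53.4 to 91.5 for *Dusp1* and 33.8 to 53.5 CPM per kilobase for *Dusp6*. *Spry1*, at 19.7 to 29.5 CPM per kilobase, lay below *Dusp6* and above *Dusp10* with no overlap between libraries. From *Dusp10* downward, each gene overlapped the next in the order *Dusp10*, *Dusp2*, *Dusp5*, *Spred1*, *Dusp4*, *Spred2*, and *Spry2*. The first 4 ranks were the same under vehicle and DCA. *Dusp2* and *Dusp5*, at ranks 5 and 6 under vehicle, were at ranks 6 and 5 under DCA. *Spred1* was at rank 7 under vehicle and rank 9 under DCA, and *Spred2* at rank 9 under vehicle and rank 7 under DCA.

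**Figure D2:**
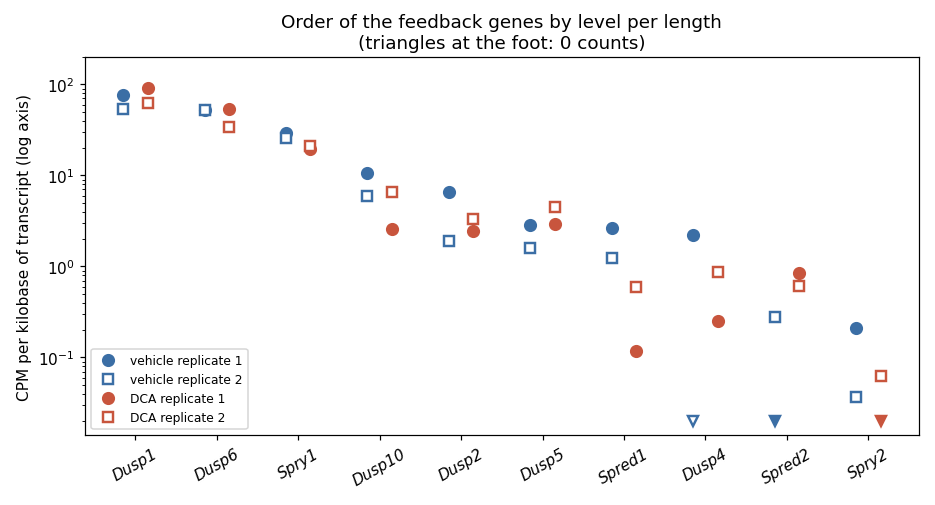
CPM per kilobase of the longest RefSeq transcript in each library, on a log axis, with the 10 genes in order of their mean over 4 libraries. Circles are replicate 1 and squares replicate 2, blue is vehicle and red is DCA, and triangles at the foot mark libraries with 0 counts. *Dusp6*, *Spry1*, and *Dusp10* are separated in every library, and the genes to their right overlap their neighbors.

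Promoters from RefSeq on GRCm38.p6, 250 bases before to 50 bases after the start of the gene, were found for 9 of the 10 genes. They were searched on both strands for the cAMP response element TGACGTCA and its core TGACG, which overlaps it, for the AP-1 site TGANTCA, for the ETS site CCGGAAG, for the TATA box TATAAA, and for the serum response factor (SRF) CArG box, elements known from immediate early genes. The full TGACGTCA was found in *Dusp1* alone among the 9 genes, 143 bases before its start, and in 1.79% of all 32851 promoters. SRF CArG boxes were found in *Dusp5* alone, 82 and 72 bases before its start, and in 1.63% of all promoters. TGACG was found in *Dusp1*, *Dusp2*, *Dusp5*, and *Spred2*, and in 20.8% of all promoters. The AP-1, ETS, and TATA box letters, found in 7.81%, 8.86%, and 13.6% of all promoters, had no match in the 9, which says only that these letters are not in the windows. The bases just after the start were found in a GENCODE transcript of the gene for each promoter but that of *Spred1*. The promoters of 3 genes are shown, 5′ to 3′ on the strand of the gene, with every match in capitals. They are *Dusp1* (chr17:26508423-26508722, minus strand), the gene with the highest level, *Dusp5* (chr19:53528895-53529194, plus strand), which carries the SRF boxes, and *Spry1* (chr3:37639697-37639996, plus strand), which has no match. *Dusp6*, *Dusp10*, *Spry2*, and *Spred1* have no match either. The 3 were picked with their values known, and any link between a match and the response to DCA was not tested. A match is a sequence description, and binding was not measured.
Dusp1: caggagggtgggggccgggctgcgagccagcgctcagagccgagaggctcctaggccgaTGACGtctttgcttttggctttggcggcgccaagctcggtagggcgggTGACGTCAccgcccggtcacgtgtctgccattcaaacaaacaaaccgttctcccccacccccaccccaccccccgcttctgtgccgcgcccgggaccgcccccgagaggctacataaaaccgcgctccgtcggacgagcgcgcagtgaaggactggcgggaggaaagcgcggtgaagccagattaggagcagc
Dusp5: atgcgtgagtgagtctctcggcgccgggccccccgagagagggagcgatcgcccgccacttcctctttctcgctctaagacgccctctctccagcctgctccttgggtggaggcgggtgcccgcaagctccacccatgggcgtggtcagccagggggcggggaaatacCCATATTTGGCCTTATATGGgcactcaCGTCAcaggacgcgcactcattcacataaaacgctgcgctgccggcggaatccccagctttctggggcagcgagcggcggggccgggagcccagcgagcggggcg
Spry1: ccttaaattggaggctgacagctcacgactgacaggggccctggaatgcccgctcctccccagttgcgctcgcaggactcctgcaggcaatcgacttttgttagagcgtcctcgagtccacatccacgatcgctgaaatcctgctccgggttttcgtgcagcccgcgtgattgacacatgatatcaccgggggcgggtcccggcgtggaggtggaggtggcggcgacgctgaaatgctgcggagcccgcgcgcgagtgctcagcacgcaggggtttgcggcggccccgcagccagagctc

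*Dusp1*, *Dusp2*, *Dusp4*, and *Dusp5* encode the inducible phosphatases of the nucleus. *Dusp1* (Entrez gene 19252, chromosome 17, 26505591 to 26508472 on GRCm38) acts on p38, JNK, and ERK and is a classic immediate early gene. It was at 150.4 and 106 CPM in vehicle replicates 1 and 2 and at 182 and 125 CPM in DCA replicates 1 and 2. The highest and lowest values were DCA replicate 1 and vehicle replicate 2, and the treatments overlapped. Means were 128 ± 31.2 CPM under vehicle against 154 ± 40.3 CPM under DCA (SD, n = 2 each), and the log2 fold change was 0.26 (standard error 0.37, exact permutation p = 0.667, edgeR's adjusted p = 0.999). Here and below, the standard error is that of the difference in log2(CPM + 1), which can differ from edgeR's log2 fold change. Its sign depended on DCA replicate 1, and leaving that library out gave -0.040.

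*Dusp5* (Entrez gene 240672, chromosome 19, 53529145 to 53541809), which acts on ERK, was at 7.03 and 3.97 CPM under vehicle against 7.18 and 11.1 CPM under DCA. The DCA values lay above the vehicle values, under DCA replicate 1 just above vehicle replicate 1. The log2 fold change was 0.73 (standard error 0.45, exact permutation p = 0.333, edgeR's adjusted p = 0.999), and it ranged from 0.38 to 1.17 with each library left out. An antisense gene covers 22.1% of the exonic bases of *Dusp5*, and since the library kit does not mark strand, reads of the 2 genes cannot be told apart there.

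*Dusp2* (Entrez gene 13537, chromosome 2, 127336159 to 127338377), a phosphatase of activated leukocytes, was at 10.5 and 3.06 CPM under vehicle against 3.96 and 5.39 CPM under DCA. Both DCA values lay between the vehicle values, which differed 3.44-fold from each other. The log2 fold change was -0.54 (edgeR's adjusted p = 0.999) and 0.59 without vehicle replicate 1. In log2(CPM + 1) the difference was -0.28 (standard error 0.77). *Dusp4* (Entrez gene 319520, chromosome 8, 34807610 to 34819894), a relative of *Dusp1* that acts on ERK and JNK, had 220 and 0 counts under vehicle against 22 and 570 counts under DCA, or 6.02 and 0 against 0.681 and 2.37 CPM. The vehicle libraries held both the highest and the lowest value, so no direction can be read from them (exact permutation p = 1).

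*Dusp6* and *Dusp10* encode phosphatases with different targets. *Dusp6* (Entrez gene 67603, chromosome 10, 99263231 to 99267489) is the cytoplasmic phosphatase of ERK and a standard readout of ERK activity. It was at 148 and 145 CPM under vehicle against 149.6 and 94.4 CPM under DCA. The vehicle libraries and DCA replicate 1 lay between 145 and 149.6 CPM, and DCA replicate 2 was below them. The log2 fold change was -0.26 (standard error 0.33, exact permutation p = 1, edgeR's adjusted p = 0.999), and it moved to 0.031 when DCA replicate 2 was left out and to -0.64 when DCA replicate 1 was. *Dusp10* (Entrez gene 63953, chromosome 1, 184034381 to 184075636), which acts on JNK and p38, was at 29.6 and 16.6 CPM under vehicle against 7.12 and 18.2 CPM under DCA. DCA replicate 1 was the lowest, and DCA replicate 2 fell between the vehicle libraries. Its log2 fold change was -0.86 (standard error 0.74, exact permutation p = 0.667, edgeR's adjusted p = 0.999) and was below 0 with each library left out in turn, from -1.70 without DCA replicate 2 to -0.34 without DCA replicate 1.

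*Spry1* and *Spry2* encode Sprouty proteins, which blunt Ras and Raf activation by receptor tyrosine kinases. *Spry1* (Entrez gene 24063, chromosome 3, 37639947 to 37644599) was at 73.2 and 63.2 CPM under vehicle against 48.9 and 52.2 CPM under DCA. The DCA values lay below the vehicle values, and libraries of the same treatment were close, with ratios of 1.16 between the vehicle and 1.07 between the DCA libraries. The mean under DCA was 74.1% of that under vehicle, and the log2 fold change was -0.43 (standard error 0.11). The exact permutation p was 0.333, and edgeR gave an unadjusted p of 0.197 (adjusted, 0.999). The log2 fold change ranged from -0.53 to -0.35 with each library left out, and was below 0 each time. A gene annotated on the opposite strand shares 24.4% of the exonic bases of *Spry1*, so some of its reads may belong to that gene. *Spry2* (Entrez gene 24064, chromosome 14, 105891947 to 105896819) had 16 and 2 counts under vehicle against 0 and 31 counts under DCA, all under 0.5 CPM, and was not tested.

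*Spred1* and *Spred2* encode Sprouty-related proteins, and Spred1 is known to bring the Ras inhibitor neurofibromin to the membrane. *Spred1* (Entrez gene 114715, chromosome 2, 117121071 to 117182279) had 583 and 197 counts under vehicle against 23 and 864 counts under DCA, or 15.9 and 7.53 against 0.712 and 3.59 CPM. The DCA values lay below the vehicle values, while the DCA libraries differed 5.05-fold and the vehicle libraries 2.12-fold. The mean under DCA, 2.15 ± 2.04 CPM, was 18.3% of that under vehicle, 11.7 ± 5.95 CPM (SD, n = 2 each). The log2 fold change was -2.44, and the difference in log2(CPM + 1) was -2.10 (standard error 0.87, exact permutation p = 0.333). Its unadjusted p from edgeR, 0.0835 (adjusted, 0.999), was the smallest of the 9 genes and ranked 853 among the 11184 tested. Leaving out DCA replicate 2 gave a log2 fold change of -4.03, and leaving out DCA replicate 1 gave -1.71. *Spred2* (Entrez gene 114716, chromosome 11, 19924442 to 20024026) had 0 and 21 counts under vehicle against 77 and 422 counts under DCA, or 0 and 0.802 against 2.38 and 1.76 CPM. The DCA values lay above the vehicle values (exact permutation p = 0.333, edgeR's adjusted p = 0.999), but the size of a fold rests on the library with 0 counts. On the log2(CPM + 1) scale the difference was 1.19, with a 95% interval from limma of -0.89 to 3.26.

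The widths of the intervals from limma rest on a spread that is borrowed in part from all genes tested. Intervals from the spread of each gene alone were not computed and may be wider or narrower. For *Dusp1*, *Dusp6*, and *Spry1* the 95% interval from limma of the difference in log2(CPM + 1) ran from -0.44 to 0.95, from -0.97 to 0.37, and from -1.15 to 0.30, so a rise of 1 was outside the interval for each and a fall of 1 was outside it for *Dusp1* and *Dusp6*. The interval of *Spred1*, from -4.09 to -0.11, was the only 1 of 9 without 0, and its adjusted p in limma was 0.955. An interval without 0 is the same as an unadjusted limma p under 0.05, which 517 of the 11184 genes tested had. For *Dusp2*, *Dusp4*, *Dusp5*, *Dusp10*, and *Spred2* the intervals held changes of over 1 on the log2 scale in at least 1 direction.

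**Figure D3:**
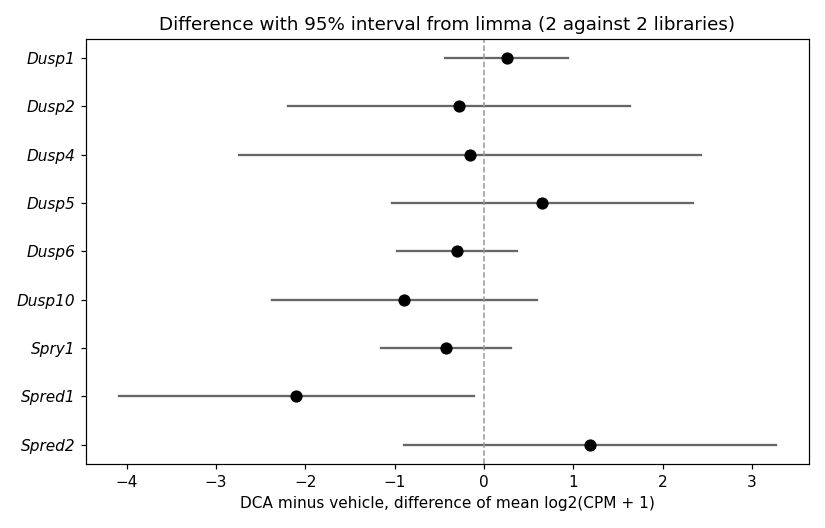
Difference between DCA and vehicle in mean log2(CPM + 1) for the 9 feedback genes tested. Points are differences and bars 95% intervals from limma with 2 against 2 libraries, and the dashed line marks no difference. The bar of *Spred1* alone stays below 0, and the bars of *Dusp1*, *Dusp6*, and *Spry1* are the shortest.

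Libraries of the same treatment differed for these genes as well. Of the 9 genes tested, 8 were higher in vehicle replicate 1 than in vehicle replicate 2, all but *Spred2*, beside 50.9% of all genes tested. The median log2 ratio between the vehicle libraries was 0.69 over the 9 genes tested and 0.019 over all genes tested. Between the DCA libraries, 6 of the 9 genes tested were higher in replicate 2, beside 51.7% of all genes tested, with a median log2 ratio of 0.36 against 0.024. The genes whose levels followed those of *Dusp1* most closely over the 4 libraries were *Ccdc32*, *Trrap*, and *Prss23*, with root mean square differences of 0.0275, 0.0315, and 0.0342 in centered log2(CPM + 1), and those closest to *Spred1* were *Nemp2*, *Klrb1b*, and *Rnf24*, at 0.0984, 0.117, and 0.154. Over 4 libraries such closeness is a description only.

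The rest of the pathway was examined with fixed lists. Among 7 other MAPK phosphatases and Sprouty relatives, 3 were tested, 2 higher and 1 lower under DCA, and 0 had an unadjusted p under 0.05. *Dusp7*, which acts on ERK, was at 5.47 and 5.12 CPM under vehicle against 9.87 and 4.32 CPM under DCA. *Dusp16*, which acts on JNK and p38, was at 29.4 and 16.2 CPM under vehicle against 13.1 and 18.8 CPM under DCA, and both genes overlapped between treatments. *Spry4*, a Sprouty gene below the level tested, had 2 and 0 counts under vehicle against 75 and 161 under DCA, or 0.0547 and 0 against 2.32 and 0.670 CPM. Without a filter on low values, edgeR gave it an unadjusted p of 0.165 (adjusted, 0.954). Of 10 atypical DUSPs, 8 were tested, 7 higher and 1 lower, with 0 at an unadjusted p under 0.05.

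In the Ras to ERK cascade, 15 of 16 genes were tested, 7 higher and 8 lower under DCA, in the JNK and p38 cascade 15 of 16, with 6 higher and 9 lower, and among Ras GTPase-activating proteins 6 of 6, with 2 higher and 4 lower. Among the 6 higher in the JNK and p38 cascade was *Mapk12*, with 0 and 0 counts under vehicle against 170 and 0 under DCA. It passed the filter on low values only through DCA replicate 1. No gene tested in these lists reached an unadjusted p under 0.05 with edgeR, or an adjusted p under 0.05 with DESeq2. The ERK gene *Mapk3* was at 34.7 and 20.6 CPM under vehicle against 31.5 and 57.7 CPM under DCA. The JNK gene *Mapk8* was at 3.83 and 4.28 against 5.05 and 4.05 CPM, and the p38 gene *Mapk14* at 52.8 and 33.4 against 34.4 and 44.3 CPM. These 3 genes overlapped between treatments.

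Among 16 genes known as transcriptional outputs of ERK, 12 were tested, 4 higher and 8 lower under DCA. The unadjusted p was under 0.05 for 4 of those lower and 0 of those higher. These were *Egr1*, *Egr2*, *Fos*, and *Ier2*, immediate early genes, and 0 of the 12 had an adjusted p under 0.05 with edgeR. *Egr2* passed the filter on low values only through vehicle replicate 2, so the count of 4 is not read against the share of all genes. DESeq2 called *Egr1* and *Egr2* at an adjusted p under 0.05, beside 2.26% of all genes tested. With *Egr2* among them, this count is not read against that share. The genes higher under DCA are named after their values were seen. *Fosl1* was at 0.793 and 0.688 against 2.32 and 2.46 CPM, *Ier3* at 40.0 and 27.2 against 42.6 and 46.0 CPM, and *Phlda1* at 72.0 and 61.3 against 76.2 and 94.3 CPM. These 3 did not overlap between treatments, and 18.6% of all genes tested lay above vehicle in this way. *Fosl1* passed the filter on low values only through its DCA libraries, so the 3 are not read against that share. *Myc* was at 193 and 143 against 258 and 181 CPM, with overlap. *Egr1*, a zinc finger factor, was at 249 and 175 CPM under vehicle against 36.5 and 81.6 CPM under DCA, with a log2 fold change of -1.85 and adjusted p values of 0.999 by edgeR and 0.00331 by DESeq2. *Egr2* had 14 and 213 counts under vehicle and none under DCA. Against 3 counts per DCA library its vehicle mean was 80.9-fold higher, a bound that rests mostly on vehicle replicate 2. By vehicle replicate 1 alone the bound was 7.27-fold. *Fos* was at 76.1 and 74.0 CPM under vehicle against 47.7 and 23.4 CPM under DCA, and *Ier2* at 148 and 139 against 86.3 and 87.7 CPM. These 4 and *Zfp36*, at 68.3 and 77.7 against 49.3 and 47.0 CPM, lay below vehicle in both DCA libraries. That order was seen in 14.7% of all genes tested, and with *Egr2* among them the 5 are not read against it. The medians of the tested genes were -0.43 for the 9 feedback genes and -0.31 for the 12 output genes, with single values that overlapped, and the difference between the lists was not tested.

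**Figure D4:**
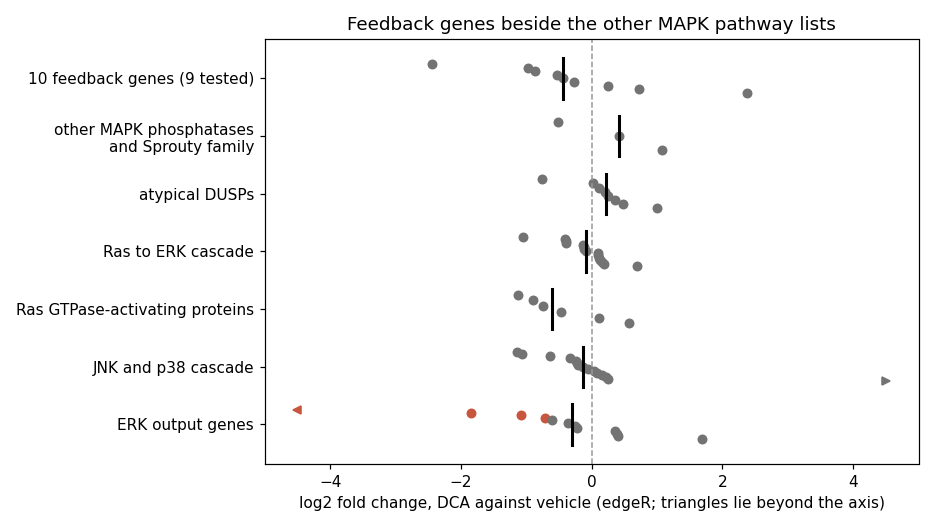
Log2 fold change of each tested gene, DCA against vehicle, in 7 lists of the MAPK pathway. Points are genes, red for an unadjusted p under 0.05 by edgeR, triangles lie beyond the axis, and black bars are list medians. The red points are the 4 output genes *Egr1*, *Egr2*, *Fos*, and *Ier2*, and the feedback genes in the top row hold none. *Egr2* passed the filter on low values only through vehicle replicate 2, and *Mapk12*, beyond the axis on the right, only through DCA replicate 1.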

How the data were processed

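RNA-Seq of 2 vehicle and 2 DCA libraries of cultured large intestinal ILC2s was analysed from 1 table. The submitters' processing notes list cutadapt 1.9, HISAT2 2.2.1, and the mm10 build, and the counting tool, its annotation, and its strand setting are not given in the sources used here. The values the authors deposited are whole-number counts of reads for each gene, not the FPKM that the table is titled with. Libraries were mapped to treatments by name.

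Counts were scaled with TMM and tested with edgeR 4.0.16 (quasi-likelihood, two-sided, Benjamini-Hochberg) in R 4.3.3 for 11184 genes that averaged 1 CPM or more. Means and SDs are of scaled CPM. Standard errors are of the difference in log2(CPM + 1), and log2 fold changes are from edgeR. Intervals came from limma 3.58.1 on log2(CPM + 1), and DESeq2 1.42.0, which the study names, was an alternative. Other alternatives were median-of-ratios and total count scaling, quantile normalization, no filter, a mean of at least 5 CPM, filterByExpr, a replicate block, another gene length, and each library left out. The edgeR script was tested on simulated counts. Transcript lengths are those of RefSeq transcripts in GENCODE M21, and positions and promoters are from RefSeq on GRCm38.p6. The 10 genes and all lists (MAPK pathway and cell type markers) were chosen with earlier results of these data known. Beyond the 10 genes, those named are at most 4 genes per list with an unadjusted p under 0.05, *Spry4*, *Dusp7*, *Dusp16*, and MAPK genes (1 gene that the rule names is not reported here), and the 3 genes nearest in pattern to the gene with the highest mean and to that with the smallest p. *Ergic1* shares 11 exonic bases with *Dusp1* on the opposite strand.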

Additional observations from a re-analysis of the deposited data

How the results depend on the processing

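Over the 9 alternatives that kept 4 libraries, 0 of the feedback genes had an adjusted p under 0.05, with 7 to 10 of them tested, and the smallest adjusted p was 0.320, for *Spred1* with DESeq2. Its unadjusted p ranged from 0.0192 to 0.129 over them. Genes called at an adjusted p under 0.05 over the whole table, 0 in edgeR's test (478 at an unadjusted p under 0.05), numbered 253 with DESeq2 and 36 without a filter, and 0 under the other 7. With 1 library left out, which leaves 1 library in a treatment whose spread is assumed to be that of the other, they ranged from 0 to 20 (20 without vehicle replicate 1). The median log2 fold change of the feedback genes was -0.48 to -0.28 over the 9 alternatives and -0.53 to 0.50 with 1 library left out. The replicate numbers share only a label (correlation of deviations 0.0197 across genes), and with the replicate block *Dusp4* changed sign to 1.87, with 0 genes called. With 1 library left out, log2 fold changes ran from -0.040 to 0.50 for *Dusp1*, -1.17 to 0.59 for *Dusp2*, -2.14 to 10.3 for *Dusp4* (the highest with vehicle at 0 counts, no bound), and -0.64 to 0.031 for *Dusp6*. *Spred2* could not be fitted without DCA replicate 1, nor *Dusp4* and *Spred2* at a mean of at least 5 CPM, since they were then below the filter. With the union of exons as length, the order of the 10 genes was the same. The cause of these changes was not tested. *Spry2*, *Spry4*, *Spred2*, and *Dusp4* each have a library at 0 counts.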
